A study of Mus musculus with 2 samples.

Results

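Cadherins, protocadherins and catenins were taken as every gene symbol made of Cdh and a number, every symbol starting with Pcdh, and every symbol made of Ctnn, the letter a, b or d, and a number. They numbered 100 of the 23284 gene symbols listed for both libraries: 23 Cdh genes, 59 clustered protocadherins, 12 non-clustered protocadherins and 6 catenins. The names were the only criterion, and no measured value entered the choice. RNA was sequenced from 2 mouse melanoma cultures, to look for genes related to metastasis. B16/BL6, grown in RPMI, is an invasive subline of B16, which was grown in DMEM and arose in a C57BL/6 mouse; both media carried the same serum and antibiotics. Each line gave 1 library, which leaves every value without a replicate error and every difference untested. Line and medium cannot be told apart, nor can fewer cells using a gene and less RNA of it per cell.

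Classical cadherins are single-pass membrane proteins that bind like cadherins on the neighbouring cell in a calcium-dependent way, and their cytoplasmic tails bind delta-catenin and beta-catenin, the last of which links to alpha-catenin and actin. In skin, E-cadherin holds melanocytes to keratinocytes, and a switch from E-cadherin to N-cadherin is a known feature of melanoma progression. The clustered protocadherins lie in 3 tandem arrays, alpha, beta and gamma. In neurons each cell uses its own combination of them as a surface label, chosen by the CTCF protein, cohesin and DNA methylation acting on the promoter of each variable exon. Free beta-catenin is also the nuclear effector of Wnt signalling.

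Expression was given as FPKM, fragments counted per kilobase of transcript and relative to the size of the library, so levels can be compared between genes on this scale. Differences below are the log2(FPKM + 1) of B16/BL6 less the log2(FPKM + 1) of B16, which understates the change of low genes. Genes that reached 1 FPKM in either library are called measured, or at the minimum, and 2-fold on this scale is a size rule, not a test. All 8 listed melanocyte lineage genes were at 1 FPKM or more in both libraries. Of 11 listed epithelial genes none reached 1 FPKM in either. Kdr and Tek (endothelial) and Col3a1, Dcn and Lum (fibroblast) stood at 0 in both. The summed FPKM of the 8 fibroblast markers was 13.5 in B16/BL6 and 1.05 in B16, with Pdgfrb at 7.43 and 0.104 and Col1a2 at 5.32 and 0.367. That of the 8 endothelial markers, nearly all Egfl7, was 89.9 and 15.9. Of the listed neuron, glia and leukocyte genes, Tubb3 was at 98.3 FPKM in B16/BL6 and 91.0 FPKM in B16, Gfap at 0.898 and 1.41, and Cd68 at 1.23 and 2.83. The others in those lists were under 1 FPKM in both. The part of these markers in the results was not tested. The depth was not recorded, but B16/BL6 stood at 0.906 times the B16 value in 155 of 379 genes above 0 and under 0.1 FPKM in each library (within 0.5%). If that ratio stands for equal numbers of fragments, the B16/BL6 library was 1.1 times as deep. Rescaling each library to the same sum shifted every log2 ratio by -0.17, and a median or named gene whose direction turned with it is pointed out. That sum, 1000000, was above the summed FPKM of 563451 in B16/BL6 and 500485 in B16. The 1 added before the logarithm therefore weighed less, and differences of low genes moved by other amounts. Pcdhb5 went from 1.17 to 1.61. Passing 2-fold with equal sums can thus come from the smaller weight of the added 1.

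The members formed an uneven set. In B16/BL6, 57 of the 100 were above 0, against 47 in B16, and 38 were listed at 0 in both libraries. Over all 23284 symbols, 13195 were above 0 in B16/BL6 and 13201 in B16, and 9351 were at 0 in both. Only 14 of the 100 members reached 1 FPKM in at least 1 library: 3 Cdh genes, 6 clustered protocadherins, 2 non-clustered protocadherins and 3 catenins. Of these 14, 5 differed by 2-fold or more, where 6.46% of all 10709 genes at the minimum did. In B16/BL6, 3 were higher (3.31% of all genes) and 2 lower (3.16%). The 3 higher genes were all of the protocadherin beta cluster, and the 2 lower ones were Cdh13 and Pcdh1. Pcdhb5, Pcdhb12, Pcdhb14 and Pcdhb15 reached 1 FPKM in B16/BL6 only and Pcdh1 in B16 only, so the minimum itself favoured the direction of each. The median log2 difference of the 14 was 0.33, against 0.01 over all genes. With the libraries rescaled to the same sum, the median over all genes turned to -0.16.

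**Figure D1:**
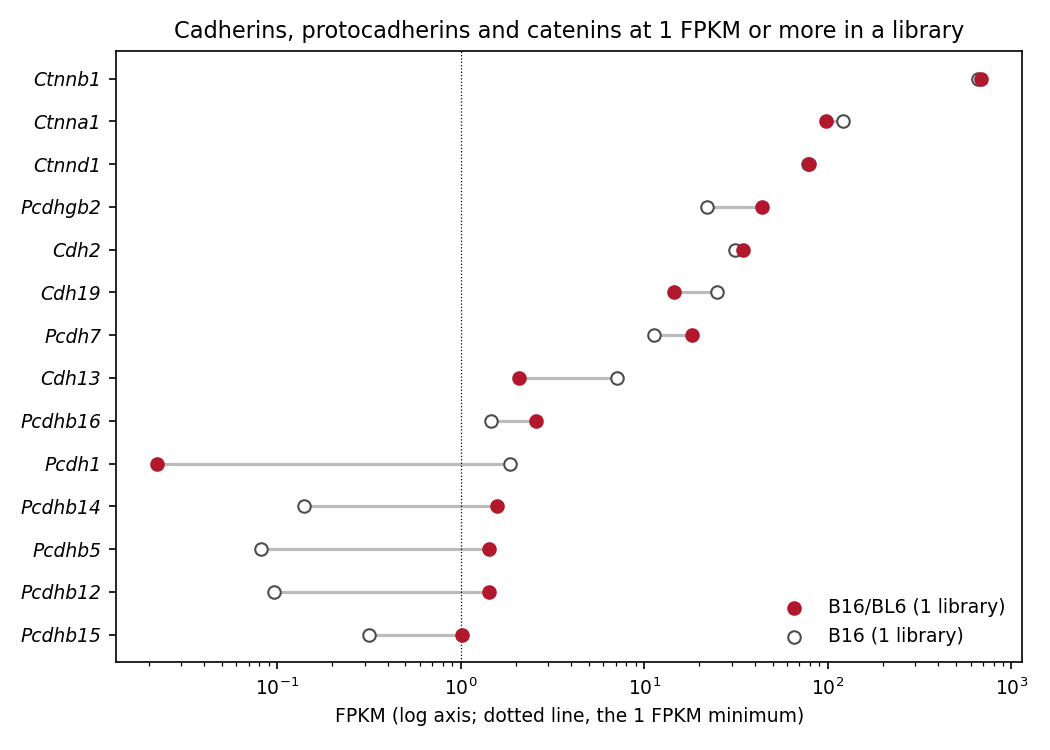
FPKM (log axis) of the 14 members at 1 FPKM or more in a library, with B16/BL6 as filled red points and B16 as open points, 1 library each. The 3 catenins lie above 70 FPKM with nearly coinciding points, while Pcdh1 (0.0222 FPKM in B16/BL6 and 1.86 FPKM in B16) and 3 beta-cluster genes (1.42 to 1.58 FPKM in B16/BL6 and 0.0817 to 0.140 FPKM in B16) are the widest pairs.

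Among the classical cadherins the transcripts were those of N-cadherin and cadherin-19. Cdh2, the N-cadherin gene and the main cadherin of invasive melanoma cells (chromosome 18, 16588877 to 16809246, minus strand, in mm10 coordinates as below), stood at 34.3 FPKM in B16/BL6 and 31.2 FPKM in B16. This is a log2 difference of 0.13, which turned to -0.03 when the libraries were rescaled to the same sum and was 0.43 after the median of its chromosome was set to 0. Cdh19, a type II cadherin gene known from Schwann cells and the melanocyte lineage (chromosome 1, 110888326 to 110977584, minus strand), was at 14.5 FPKM in B16/BL6 and 25 FPKM in B16, a log2 difference of -0.75 that stayed under 2-fold. Within a library the ratio of the 2 genes does not depend on scaling. Cdh2 was 2.37 times as high as Cdh19 in B16/BL6, and 1.25 times in B16.

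No other classical cadherin reached 1 FPKM. Cdh1, the E-cadherin gene (chromosome 8, 106603351 to 106670246, plus strand), was at 0.0976 FPKM in B16/BL6 and 0.108 FPKM in B16. The ratio of these values was 0.906, the common ratio of low genes given above. Cdh3, the P-cadherin gene, Cdh4, the R-cadherin gene, and Cdh5, the cadherin of endothelial cells, were listed at 0 in both libraries. Cdh15, the M-cadherin gene of muscle, was at 0.0311 FPKM in B16/BL6 and listed at 0 in B16. Among the type II genes, Cdh24 was at 0.716 FPKM in B16/BL6 and 0.252 FPKM in B16. Cdh10 and Cdh11, the last one common in mesenchymal cells, were listed at 0 in B16/BL6 and were at 0.113 and 0.0452 FPKM in B16. In all, 11 of the 18 classical cadherins were at 0 in both libraries.

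Outside the classical group, Cdh13 was the one Cdh gene past 2-fold. It encodes T-cadherin, which has no cytoplasmic tail and is held in the membrane by a GPI anchor (chromosome 8, 118283733 to 119324921, plus strand). Its level was 2.09 FPKM in B16/BL6 and 7.09 FPKM in B16, a log2 difference of -1.39, and it stayed past 2-fold on each scale tried (-1.69 with equal sums, -1.42 with equal upper quartiles). With a pseudocount of 5 in place of 1 FPKM it was -0.77. Cdh17, the intestinal cadherin gene, was at 0.0252 FPKM in B16/BL6 and 0.0278 FPKM in B16, again at that common ratio. Cdh16, Cdh23 and Cdh26 were listed at 0 in both.

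The summed FPKM of the 23 Cdh genes was 51.8 in B16/BL6 and 63.9 in B16, and Cdh2, Cdh19 and Cdh13 made up 98.3% and 99.1% of it. Cdh2 alone held 66.3% in B16/BL6 and 48.9% in B16. The share of Cdh19 was 28% in B16/BL6 and 39.2% in B16, and that of Cdh13 was 4.03% and 11.1%.

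The catenins were the most abundant members and lay within 2-fold. Ctnnb1, the beta-catenin gene (chromosome 9, 120929216 to 120960507, plus strand), was at 685 FPKM in B16/BL6 and 661 FPKM in B16, which placed it at rank 91 and rank 72 among all symbols. Its log2 difference of 0.05 turned to -0.12 with equal sums and -0.002 with equal upper quartiles. Ctnnd1, the gene of p120-catenin, which keeps cadherins at the surface (chromosome 2, 84600071 to 84650765, minus strand), was at 78.5 FPKM in B16/BL6 and 78.4 FPKM in B16, with a log2 difference of 0.002 that turned to -0.17 with equal sums and -0.05 with equal upper quartiles. Ctnna1, the alpha-E-catenin gene (chromosome 18, 35118859 to 35254779, plus strand), was at 98.3 FPKM in B16/BL6 and 121 FPKM in B16, a log2 difference of -0.30. It was -0.47 with equal sums and -0.004 with chromosomes centred.

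Ctnnb1 was 6.97 times as high as Ctnna1 in B16/BL6, and 5.46 times in B16. The neural and heart forms of the family, Ctnna2, Ctnna3 and Ctnnd2, were listed at 0 in both libraries. The summed FPKM of the 6 catenin genes was 862 in B16/BL6 and 861 in B16.

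The 59 clustered protocadherins, all on chromosome 18, gave a different picture: 35 had a higher FPKM in B16/BL6, 9 a lower one and 15 were at 0 in both libraries. These counts were the same with equal sums and with equal upper quartiles. Over all 23284 symbols, 6888 had a higher FPKM in B16/BL6, 7045 a lower one and 9351 were at 0 in both. The summed FPKM of the clustered protocadherins was 62.0 in B16/BL6 and 27.3 in B16, a ratio of 2.27, or 18.1 and 5.35 without Pcdhgb2, the most abundant of them. The 6 that reached the minimum were 3 genes past 2-fold, all higher in B16/BL6, and 3 within it, with a median log2 difference of 1.06. Pcdhb5, Pcdhb12, Pcdhb14 and Pcdhb15 reached 1 FPKM in B16/BL6 only, so the minimum itself favoured a higher value there. The clusters differ in how far their genes can be told apart. By the GENCODE M21 gene models, 36.4% to 54.9% of the exonic bases of an alpha gene and 39.5% to 45.9% of those of a gamma gene lie in exons shared with other members, since the variable first exons are spliced to common constant exons. Alpha and gamma genes are therefore not independent readouts, and how the authors' counting split shared fragments is something the sources used here do not give. Of 22 beta genes, 21 are single exons and 2 share annotated bases with another member (Pcdhb21 and Pcdhb22), although beta genes resemble each other in sequence. Genes that are not members overlap too: Gm37446, on the opposite strand, overlaps the exon of Pcdhb12. Exons of Pcdhgb2 are overlapped by Gm37013, Gm37388, Gm38182 and Gm42416.

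**Figure D2:**
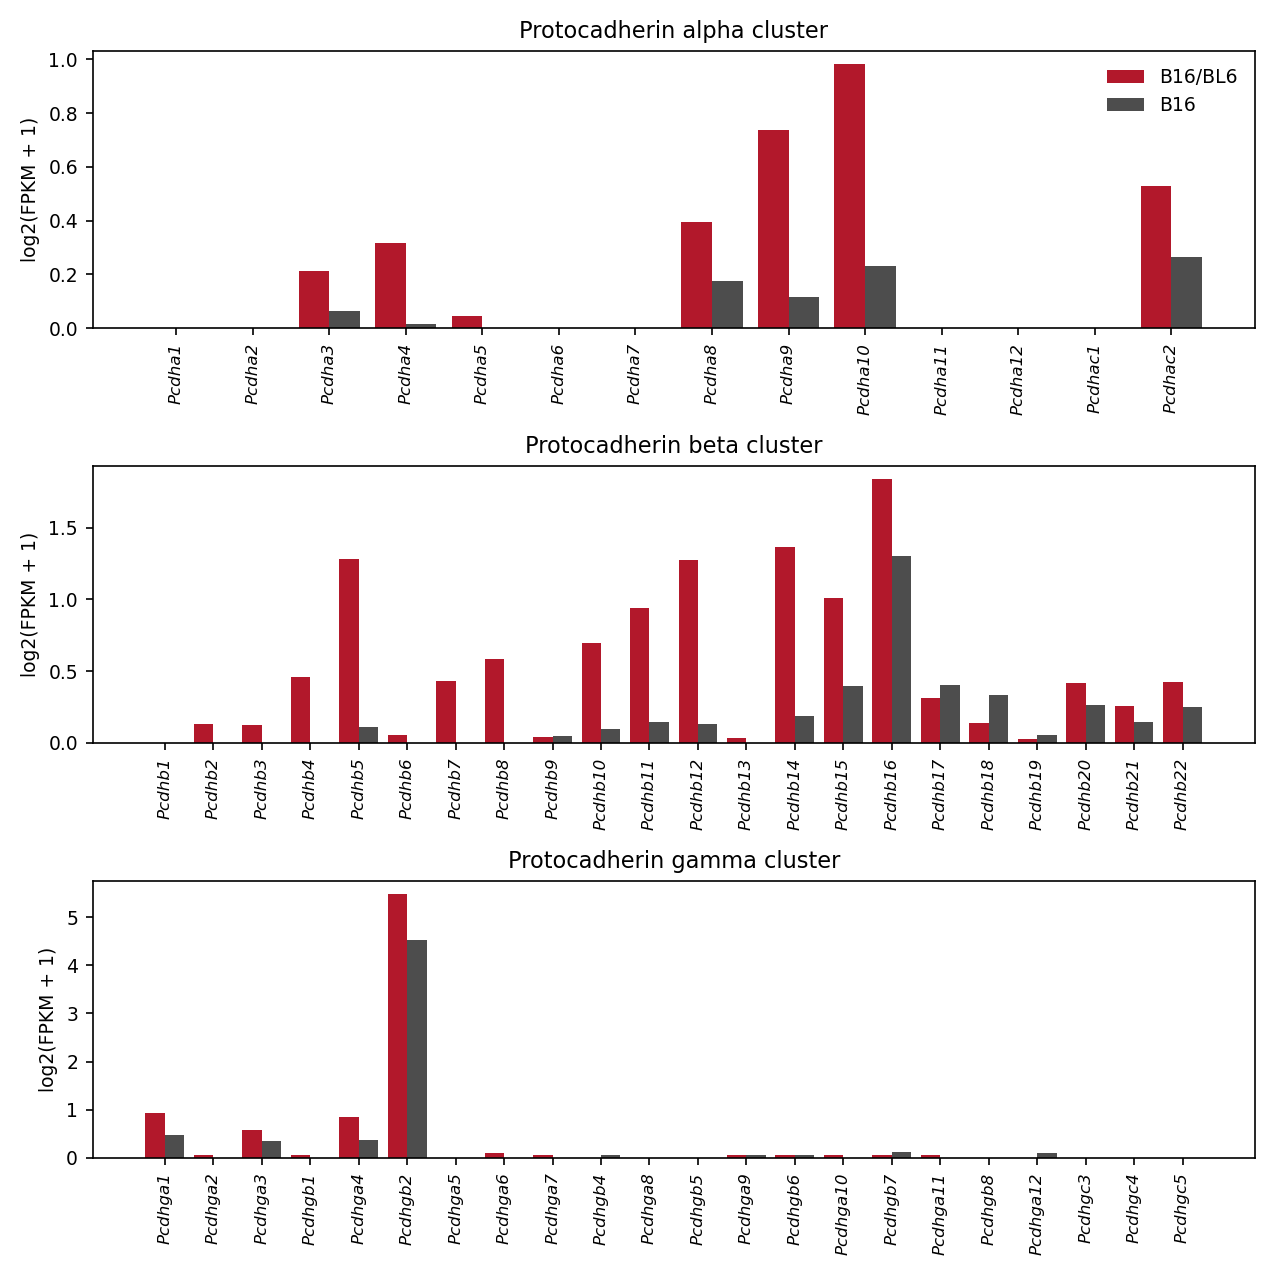
Level as log2(FPKM + 1) of the protocadherins of the alpha, beta and gamma clusters in the order of the genes along the chromosome. Bars of B16/BL6 are in red to the left of B16 in grey, 1 library each. Only names that are RefSeq symbols are drawn, which leaves out Pcdha4-g. Each panel has its own axis from 0. Red bars exceed grey ones for 14 of the 15 genes from Pcdhb2 to Pcdhb16, while Pcdhb17 to Pcdhb22 go both ways and Pcdhgb2 (43.9 FPKM in B16/BL6 and 21.9 FPKM in B16) dominates the gamma panel.

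In the beta cluster (chromosome 18, 37264938 to 37524479) 17 of 22 genes had a higher FPKM in B16/BL6 and 4 a lower one. Among the 4421 genes that were above 0 in at least 1 library and under 3 FPKM in both, 45.8% were higher in B16/BL6 and 54.2% lower. Beta protocadherins are surface proteins that lack the constant cytoplasmic part of the other clusters. Pcdhb5 was at 1.43 FPKM in B16/BL6 and 0.0817 FPKM in B16, a log2 difference of 1.17. Pcdhb12 was at 1.42 FPKM in B16/BL6 and 0.0961 FPKM in B16 (1.14), and Pcdhb14 at 1.58 FPKM in B16/BL6 and 0.140 FPKM in B16 (1.18). These 3 genes were past 2-fold on each of the 3 library scales and with each chromosome centred, and under 2-fold with a pseudocount of 5 FPKM (0.33, 0.34 and 0.36 in rising order).

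Pcdhb16 was the highest beta gene in both libraries, at 2.58 FPKM in B16/BL6 and 1.47 FPKM in B16, a log2 difference of 0.54. Pcdhb15 was at 1.02 FPKM in B16/BL6 and 0.315 FPKM in B16 (0.62), and it passed 2-fold with a pseudocount of 0.1 FPKM (1.43). Pcdhb16 held 42.7% of the summed FPKM of the cluster in B16 but 21.0% in B16/BL6. The sum over the cluster was 12.3 FPKM in B16/BL6 and 3.43 FPKM in B16, a ratio of 3.58. Without Pcdhb16 it was 9.72 and 1.97 FPKM, a ratio of 4.95.

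Below 1 FPKM, Pcdhb11 was at 0.915 FPKM in B16/BL6 and 0.106 FPKM in B16, and Pcdhb10 at 0.623 and 0.0688 FPKM. Pcdhb4, Pcdhb7 and Pcdhb8 were at 0.374, 0.348 and 0.50 FPKM in B16/BL6 and were listed at 0 in B16. In all, 7 of the 22 beta genes were above 0 in B16/BL6 and at 0 in B16 and 0 the other way round. Among the genes under 3 FPKM this was so for 16.1% and 16.3%. Pcdhb1 was listed at 0 in both.

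The values could be read as small numbers of fragments, because most beta genes have a single exon. Of 14 beta genes above 0 in both libraries, Pcdhb16 was not searched, being estimated at 78 fragments in B16. Each of the other 13 had a ratio that, once divided by 0.906, was a ratio of whole numbers within 0.02 fragments. The RefSeq gene length and an estimated depth of 11200000 fragments in B16/BL6 and 10000000 in B16 gave an estimate for each gene. Pairs were sought only near that estimate, so the size of these numbers was set by the search. A ratio alone does not fix the size of its pair. For each gene several B16 counts near its estimate were tried. On that reading Pcdhb5 rested on 58 fragments in B16/BL6 and 3 in B16. Pcdhb12 rested on 49 and 3, Pcdhb14 on 62 and 5, Pcdhb11 on 38 and 4, Pcdhb10 on 20 and 2, and Pcdhb15 on 32 and 9. Pcdhb9 had 1 fragment in each library. The whole cluster came to about 512 fragments in B16/BL6 and 148 in B16. These numbers are estimates, and they carry no interval for the difference between the lines. They also depend on the gene length taken, and the length used by the authors is not known. Pcdhb14, for 1, has 3438 bases in RefSeq and 8695 in the GENCODE M21 model.

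The difference was not even along the array, a split that was chosen after the values had been seen. From Pcdhb2 to Pcdhb16, 14 of 15 genes had a higher FPKM in B16/BL6, the exception being Pcdhb9, and the summed FPKM was 11.1 in B16/BL6 and 2.31 in B16, a ratio of 4.79. From Pcdhb17 to Pcdhb22, 3 of 6 genes were higher and 3 lower, with sums of 1.24 FPKM in B16/BL6 and 1.13 FPKM in B16. Pcdhb17 was at 0.241 FPKM in B16/BL6 and 0.325 FPKM in B16, and Pcdhb18 at 0.102 and 0.262 FPKM. In estimated fragments the first stretch had 465 in B16/BL6 and 105 in B16, and the last 6 genes had 47 and 43.

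In the alpha cluster (chromosome 18, 36930184 to 37187661) no symbol reached 1 FPKM. All 8 of the 15 symbols above 0 had a higher FPKM in B16/BL6, and the other 7 were at 0 in both. Of the 4421 genes above 0 in at least 1 library and under 3 FPKM in both, 45.8% were higher in B16/BL6. Pcdha10 was at 0.977 FPKM in B16/BL6 and 0.174 FPKM in B16, Pcdha9 at 0.668 and 0.0831 FPKM, and Pcdhac2, one of the C-type isoforms used by many neurons, at 0.442 and 0.20 FPKM. The cluster summed to 3.24 FPKM in B16/BL6 and 0.674 FPKM in B16, a ratio of 4.81. By the gene models, the matched alpha genes share exonic bases, so their common direction is not that of separate measurements; Pcdha10 and Pcdha4-g were not matched to a model.

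In the gamma cluster (chromosome 18, 37661793 to 37841873) a single symbol carried nearly the whole signal. Pcdhgb2 was at 43.9 FPKM in B16/BL6 and 21.9 FPKM in B16, which was 94.5% and 94.6% of the summed FPKM of the 22 gamma genes. Its ratio was 2.0, and on the log2(FPKM + 1) scale its difference of 0.97 stayed just under 2-fold. It was 0.82 with equal sums, 0.92 with equal upper quartiles and 1.26 when each chromosome was centred at its own median. By the gene model, 45.5% of its exonic bases are shared with the other gamma genes. Pcdhga1 was at 0.904 FPKM in B16/BL6 and 0.386 FPKM in B16, Pcdhga4 at 0.792 and 0.300 FPKM, and Pcdhga3 at 0.493 and 0.280 FPKM. The other 18 gamma genes were under 0.1 FPKM in both libraries, and the 3 C-type genes Pcdhgc3, Pcdhgc4 and Pcdhgc5 were listed at 0. Without Pcdhgb2 the gamma genes summed to 2.56 FPKM in B16/BL6 and 1.24 FPKM in B16, a ratio of 2.06.

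Of the genes around the clusters, 13 had a lower FPKM in B16/BL6 and 2 a higher one. Of these 15 listed genes beside or between the clusters, 12 reached 1 FPKM, none was past 2-fold in either direction, and their median log2 difference was -0.42. Over the 269 genes of chromosome 18 at the minimum the median was -0.29. Over all 23284 symbols, 7045 had a lower FPKM in B16/BL6 and 6888 a higher one. Hars2, a mitochondrial histidyl-tRNA synthetase gene upstream of the alpha cluster, was at 3.97 FPKM in B16/BL6 and 6.98 FPKM in B16, and Diap1, a formin gene downstream of the gamma cluster, at 11.9 and 18.2 FPKM. Arap3 was at 0.343 FPKM in B16/BL6 and 1.12 FPKM in B16, which was past 2-fold with equal sums (-1.01), and Fchsd1 at 0.758 and 1.58 FPKM. Taf7, a general transcription factor gene that lies between the beta and gamma clusters, was at 1.86 FPKM in B16/BL6 and 1.61 FPKM in B16, a log2 difference of 0.13 that was 0.42 with chromosomes centred.

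Non-clustered protocadherins differed in both directions. Pcdh7, a delta-1 protocadherin gene (chromosome 5, 57717967 to 58133230, plus strand), was the most abundant, at 18.2 FPKM in B16/BL6 and 11.3 FPKM in B16, a log2 difference of 0.64. It held 93.4% of the summed FPKM of the 12 genes in B16/BL6 and 74.8% in B16.

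A pair of delta-2 genes stood below 1 FPKM and differed in opposite directions. Pcdh19, the gene of a homophilic adhesion protein of the developing brain, was at 0.817 FPKM in B16/BL6 and 0.191 FPKM in B16, a ratio of 4.27. By the gene models, its exons are overlapped by Gm26851 on the opposite strand. Pcdh17 was at 0.132 FPKM in B16/BL6 and 0.944 FPKM in B16, so that it was 7.14 times higher in B16. On the log2(FPKM + 1) scale the differences were 0.61 and -0.78. Their upstream sequences are shown because the pair is of 1 subfamily and differs in direction. They come from RefSeq (GRCm38.p6), end before the outermost annotated start, run in the direction of transcription, and have the GC box (GGGCGG, or CCGCCC on the other strand) in capitals. Pcdh17 is shown from the plus strand, chr14:84443313-84443562, and Pcdh19 from the minus strand, chrX:133689045-133689243.
Pcdh17: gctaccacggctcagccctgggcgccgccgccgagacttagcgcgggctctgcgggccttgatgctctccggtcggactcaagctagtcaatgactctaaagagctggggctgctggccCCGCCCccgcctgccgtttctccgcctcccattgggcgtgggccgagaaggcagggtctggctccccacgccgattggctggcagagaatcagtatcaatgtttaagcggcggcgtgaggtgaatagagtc
Pcdh19: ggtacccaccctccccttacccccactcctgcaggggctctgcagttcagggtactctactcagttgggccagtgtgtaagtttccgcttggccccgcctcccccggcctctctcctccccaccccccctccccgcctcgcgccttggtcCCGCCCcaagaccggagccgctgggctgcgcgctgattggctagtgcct

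Each of these 2 promoters held 1 GC box in its RefSeq window of 300 bases, a motif present in 35.7% of the 32851 mouse windows of that length. Neither held a TATA box (TATAAA on either strand, 13.6% of all windows) or the E-boxes CACGTG (7.15%) and CATGTG (14.2%), the letters that MITF, the melanocyte transcription factor, is known to bind. The GC content of the windows was 65.0% for Pcdh17 and 67.7% for Pcdh19, against a median of 52.7% over all windows. The table held windows for 27 of the 100 members.

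Pcdh1, a delta-1 gene on chromosome 18 (38185914 to 38212053, minus strand), was at 0.0222 FPKM in B16/BL6 and 1.86 FPKM in B16, a log2 difference of -1.49 that became -0.45 with a pseudocount of 5 FPKM. Pcdh12, which neighbours it and is known from endothelial cells, was at 0.305 FPKM in B16/BL6 and 0.623 FPKM in B16. Both genes lie downstream of the gamma cluster, and their direction was opposite to that of the cluster sums. Pcdh9 was listed at 0 in B16/BL6 and was at 0.187 FPKM in B16, and 6 of the 12 non-clustered genes were at 0 in both libraries.

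**Figure D3:**
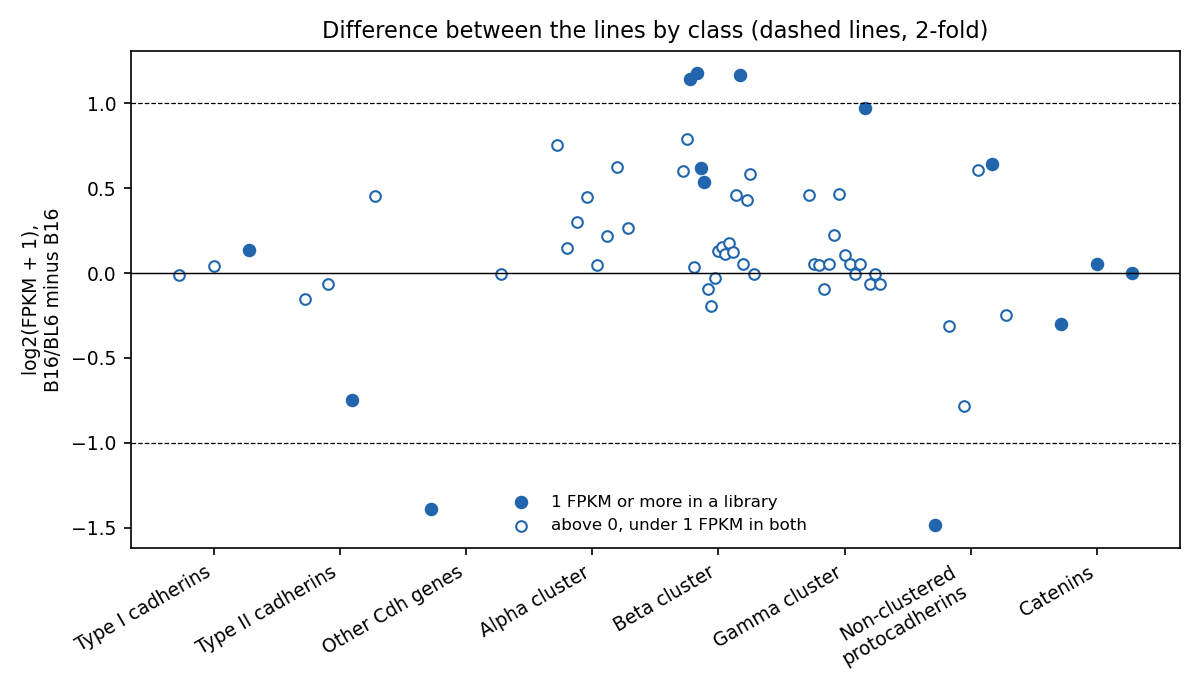
Difference in log2(FPKM + 1), B16/BL6 minus B16, for the 62 members above 0 in at least 1 library, by class. Filled points reached 1 FPKM in a library, open points did not, and dashed lines mark 2-fold. Pcdhb5, Pcdhb12 and Pcdhb14 lie above the upper line, Cdh13 and Pcdh1 below the lower one, and every alpha-cluster point lies above 0.

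Genes that work with cadherins were given from lists of related genes. Among 20 measured junction partners none was higher by 2-fold in B16/BL6 and 2 were lower, with a median of -0.12. Vcl, the gene of vinculin, which alpha-catenin recruits under tension, was at 9.19 FPKM in B16/BL6 and 30.9 FPKM in B16, a log2 difference of -1.65. Within 2-fold, Arvcf, a relative of p120-catenin, was at 2.66 FPKM in B16/BL6 and 0.987 FPKM in B16, and Pkp2, a plakophilin gene, at 1.47 and 3.48 FPKM, which was past 2-fold with equal sums (-1.14). Other cadherin superfamily genes at the minimum were 4, all within 2-fold: Clstn1 (55.4 FPKM in B16/BL6 and 43.9 in B16), Clstn3 (20.8 and 18.1), Fat1 (19.2 and 16.4) and Celsr2 (2.84 and 2.52).

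Of 8 listed repressors of E-cadherin, 4 were measured, and all 4 were within 2-fold. Zeb2 was at 26.4 FPKM in B16/BL6 and 25.7 FPKM in B16, a log2 difference of 0.04 that turned to -0.13 with equal sums and -0.01 with equal upper quartiles, and Snai2 at 2.96 FPKM in both. Tcf4 was at 6.99 FPKM in B16/BL6 and 7.06 FPKM in B16. Tcf3, which encodes the E2A proteins, was at 52.0 FPKM in B16/BL6 and 28.2 FPKM in B16, a log2 difference of 0.86. Zeb1, Twist1 and Twist2 were listed at 0 in both libraries, and Snai1 was at 0.0596 FPKM in B16/BL6 and at 0 in B16.

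All 13 measured genes of cadherin processing and turnover were within 2-fold, with a median of 0.06 that turned to -0.11 with equal sums. Psen2, a catalytic subunit of gamma-secretase, was at 181 FPKM in B16/BL6 and 107 FPKM in B16, and Adam10, the main sheddase of E-cadherin and N-cadherin, at 51.1 and 77.7 FPKM. The kinase gene Src was at 24.5 FPKM in B16/BL6 and 35.3 FPKM in B16, and Cbll1, whose product Hakai marks E-cadherin for degradation, at 12.9 and 8.75 FPKM. None of 14 measured genes of the beta-catenin destruction complex and its nuclear partners was past 2-fold, with a median of -0.03. Tcf7l1 was at 29.3 FPKM in B16/BL6 and 15.5 FPKM in B16, Bcl9l at 23 and 13.8 FPKM, Bcl9 at 7.09 and 4.30 FPKM, and Tcf7 at 0.404 and 1.47 FPKM, which was past 2-fold with equal sums (-1.20).

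The 15 regulators of the protocadherin clusters were all within 2-fold. Of these, 12 were lower in B16/BL6, and the median was -0.11. Of all 13933 genes above 0 in at least 1 library, 7045 were lower. With equal sums all 15 regulators were lower, but that scale shifted every log2 ratio by -0.17 and put the median of all genes at -0.16. Ctcf, the gene of the insulator protein that bridges protocadherin promoters and enhancers, was at 29.2 FPKM in B16/BL6 and 29.7 FPKM in B16. The DNA methyltransferase gene Dnmt3a was at 8.17 FPKM in B16/BL6 and 12.4 FPKM in B16, a log2 difference of -0.55, and Dnmt1 at 67.1 and 85.1 FPKM (-0.34). Smchd1, a chromatin protein gene known to repress protocadherin clusters in mouse, was at 16.4 FPKM in B16/BL6 and 21.1 FPKM in B16 (-0.35). The cohesin gene Smc1a was at 29.1 FPKM in B16/BL6 and 35.2 FPKM in B16 (-0.26).

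**Figure D4:**
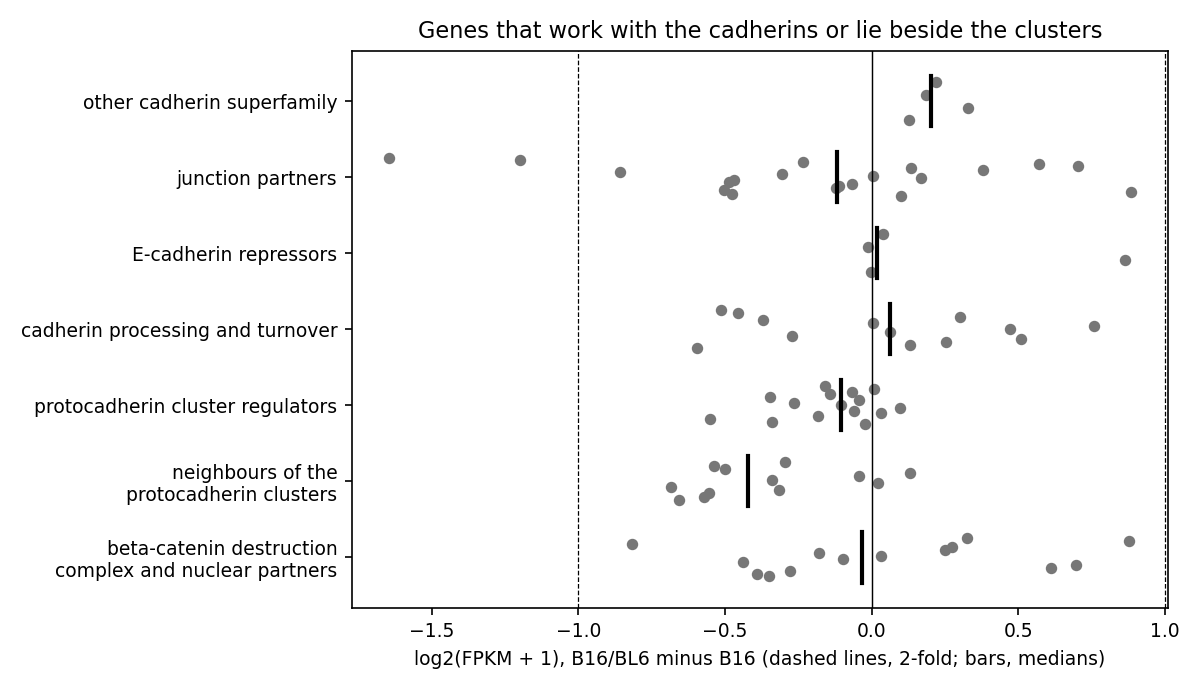
Difference in log2(FPKM + 1), B16/BL6 minus B16, for genes at 1 FPKM or more in a library in 7 lists of genes that are not members, with dashed lines at 2-fold and bars at the medians. Vcl (-1.65) lies farthest beyond the lower dashed line, and the neighbours of the protocadherin clusters have the lowest median (-0.42).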

How the data were processed

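RNA was sequenced from 1 culture each of B16/BL6 and B16, with a stranded mRNA kit per the labels' protocols. The values are FPKM per gene symbol per the file headers, made by the authors, and their scaling is not stated. Cufflinks 2.2.1, SAMtools 0.1.19, Bowtie2 2.2.3, TopHat2 2.0.13 and the mm10 build stand in the submitters' processing notes, without their roles. The sources used here give no annotation, strand setting or handling of multiply mapping fragments. A listed 0 may stand for an estimate that failed, so it enters no ratio.

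Differences were computed in Python 3.11.15 with pandas 2.3.3 as log2(FPKM + 1), with a minimum of 1 FPKM in at least 1 library. No test was run. Alternatives were pseudocounts of 0.1 and 5, no minimum or 5 FPKM, equal sums of 1000000 (TPM scale), equal upper quartiles, and centring by chromosome. Named were all members at the minimum, the catenins, chosen cadherins, the 3 next genes per cluster and the 4 largest differences per related list; any other gene was chosen after its values had been seen. Values of 1 junction partner are not reported here. The members and lists were chosen with earlier results of these data known.

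Fragments were estimated from low values: genes under 0.2 FPKM with 1 annotated transcript over 1500 bases gave estimates of the depth. Each estimate assumed that the gene held exactly 1 fragment. The median of those between 8000000 and 14000000 was taken (207 genes in B16/BL6 and 192 in B16), so these limits bounded it. Whole-number pairs were sought where B16 had under 20 fragments. Gene models came from GENCODE M21, which held 98 of 100 members, and gene lengths and order from RefSeq GRCm38.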

Additional observations from a re-analysis of the deposited data

How the results depend on the processing

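No paired analysis was possible because there was 1 library per line. Of the 14 members at the minimum, Cdh2, Ctnnb1 and Ctnnd1 turned as given above, and the others kept their direction under each alternative that gave them a value. A minimum of 5 FPKM left out Pcdh1 and the 5 beta genes. The 3 members higher and 2 lower became 0 and 0 with a pseudocount of 5 FPKM, 0 and 1 with a minimum of 5 FPKM, and 5 and 3 on the TPM scale, where the minimum lets 24 members pass. The clustered protocadherins alone had 3 higher, against 0, 0 and 5 under the same settings. Over all genes a pseudocount of 5 FPKM gave 151 higher and 118 lower of 10709. A minimum of 5 FPKM gave 246 and 212 of 8634, and it left 8 members. The median log2 difference of the members, 0.33, was 0.15 with a pseudocount of 5 FPKM, 0.080 with no minimum, 0.026 with a minimum of 5 FPKM, 0.57 on the TPM scale, 0.082 with equal upper quartiles (Pcdhb15 then falls under the minimum) and 0.54 with chromosomes centred. That of the clustered protocadherins, 1.06, was 2.11 with a pseudocount of 0.1 FPKM, 0.34 with one of 5 FPKM, 0.15 with no minimum, 0.90 on the TPM scale and 1.35 with chromosomes centred. That of the classical cadherins, -0.31 over 2 genes, was -0.013 with no minimum, -0.033 on the TPM scale and -0.13 with chromosomes centred, and that of the catenins, 0.002, was -0.17 on the TPM scale. Low values limit the clustered protocadherins: outside Pcdhgb2 and the 5 beta genes at the minimum, each rests on under 1 FPKM in both libraries. Over all genes the TPM scale gave 369 higher and 583 lower of 11257, against 354 and 338 of 10709. The median was -0.16, against 0.01.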

Other observations

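The symbol Pcdha4-g, chosen after its values were seen, was at 0.407 FPKM in B16/BL6 and 0.0301 FPKM in B16, a ratio of 13.5. RefSeq lists this name as a synonym of a gene that starts at Pcdha4 and ends with the gamma cluster, and so overlaps all 3 arrays. Pcdha4 itself was at 0.244 FPKM in B16/BL6 and 0.0119 FPKM in B16, a ratio of 20.4. Without Pcdha4-g the alpha cluster summed to 2.84 FPKM in B16/BL6 and 0.644 FPKM in B16, a ratio of 4.41.

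Pcdhga9 and Pcdhgb6 both stood at 0.881 times their B16 level in B16/BL6, against the 0.906 common among low genes.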
